A study of Mus musculus with 12 samples.

Results

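The HoxD cluster and Evx2, its neighbour, were described by their H3K27me3 domains in mouse epidermis with and without Utx. The members were the 9 Hoxd genes and Evx2, taken by name with their RefSeq GRCm38 coordinates, and all 10 were found among 21631 annotated protein-coding genes. H3K27me3, the trimethyl mark on lysine 27 of histone H3, had been mapped by CUT&RUN, an assay that releases the DNA next to an antibody-bound mark with a tethered nuclease. The 12 libraries came from single-cell suspensions of female epidermis: 3 Cre-negative animals (Cre-; Utx fl/fl, called WT) and 3 Cre-positive animals (Cre+; Utx fl/fl, called Utx-cKO), each with an H3K27me3 and an IgG library. All animals carried floxed alleles of Utx (Kdm6a), an X-linked H3K27 demethylase, which Krt14-Cre deletes in tissues that express keratin 14. The sources used here do not give age or strain. The data were 2 lists of peaks, 1 per genotype, each called on the merged animals of its genotype. No value therefore has an error between animals, no test between genotypes was possible, and values of the genotypes stand side by side.

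Hox genes encode homeodomain transcription factors that give cells their position along the body and limb axes. Within a cluster their order on the chromosome follows the order in which they act, with the low-numbered genes used early and anteriorly and the high-numbered genes late and posteriorly. Polycomb complexes lay down H3K27me3 over silent Hox genes, and demethylases such as Utx can remove it. Evx2 encodes an even-skipped type homeodomain factor and lies beyond Hoxd13, in the opposite orientation. Hoxd genes are best known for patterning digits, forearm, genitalia and trunk, and in skin Hox genes are known for carrying positional identity in fibroblasts.

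All members lay under H3K27me3 in both genotypes. Each of the 10 had a peak in its body or within 2 kb of it in WT and in Utx-cKO, where 18.0% and 19.5% of all protein-coding genes had one and 16.4% had one in both lists. The annotated start of each of the 10 genes lay inside a peak in both lists. The whole gene body was covered for 9 of the 10 members in WT and for 10 of the 10 in Utx-cKO. By that rule 3.04% of protein-coding genes were covered in WT, 3.37% in Utx-cKO and 2.26% in both, as were 9 of the members. Among genes of the members' lengths, 2163 to 36279 bp, the shares were 3.98% and 4.43%. Neighbouring members share peaks, so these are not independent counts. The members had been chosen as a group already known to be marked in these lists.

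The domain began at the same base in both genotypes and differed in a gap over Evx2 and in its far end. In WT it consisted of 2 peaks. The first ran over chr2:74599951-74655400 (55.5 kb) and the second over chr2:74657951-74784800 (127 kb). In Utx-cKO a single peak ran over chr2:74599951-74778350 (178 kb). The WT gap, chr2:74655401-74657950, was 2550 bp long and lay wholly inside Evx2. The Utx-cKO peak ended 6450 bp short of the second WT peak, on the side of Hoxd1. The domains had 175850 bp in common, which was 96.5% of the length of the WT peaks and 98.6% of that of the Utx-cKO peak.

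**Figure D1:**
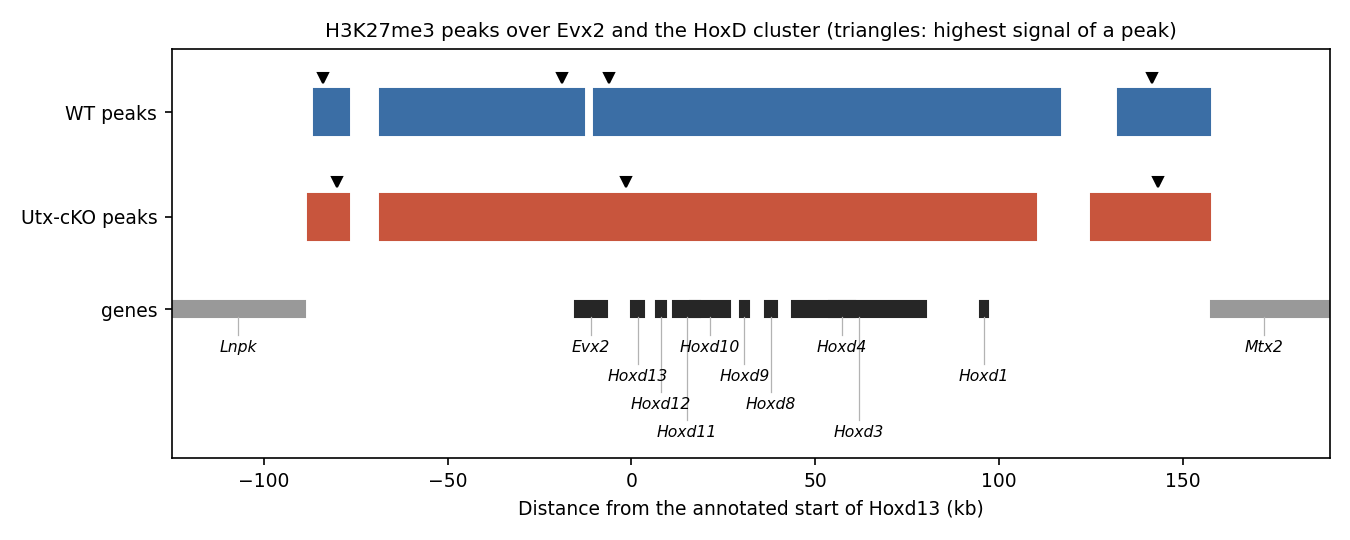
The horizontal axis gives the distance from the annotated start of Hoxd13 in kb; blue bars are WT peaks, red bars Utx-cKO peaks, triangles the place of each peak's highest signal, black boxes the members and grey boxes the flanking genes Lnpk and Mtx2. The domain is broken over Evx2 in the WT list by 2550 bp and unbroken in the Utx-cKO list, and it lies between the flanking genes in both.

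The promoters below are shown because they mark the points on which the description turns: the member with the gap, the member nearest to the strongest signal of the Utx-cKO peak, a covered member with few CpG dinucleotides, and the flanking gene at whose start a neighbouring peak ended. Each runs 5′ to 3′ on the gene's own strand from 250 bases before to 50 bases after the annotated start, from RefSeq (GRCm38.p6), and capitals mark CpG dinucleotides. They are Evx2 (chr2:74659508-74659807, minus strand), Hoxd13 (chr2:74667975-74668274, plus strand), Hoxd4 (chr2:74721728-74722027, plus strand) and Mtx2 (chr2:74825562-74825861, plus strand).
Evx2: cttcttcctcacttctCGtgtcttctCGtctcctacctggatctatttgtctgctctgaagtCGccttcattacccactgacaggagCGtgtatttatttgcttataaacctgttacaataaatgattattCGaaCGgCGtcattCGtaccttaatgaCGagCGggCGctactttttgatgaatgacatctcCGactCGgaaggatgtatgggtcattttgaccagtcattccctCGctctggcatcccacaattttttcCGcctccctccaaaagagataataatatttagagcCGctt
Hoxd13: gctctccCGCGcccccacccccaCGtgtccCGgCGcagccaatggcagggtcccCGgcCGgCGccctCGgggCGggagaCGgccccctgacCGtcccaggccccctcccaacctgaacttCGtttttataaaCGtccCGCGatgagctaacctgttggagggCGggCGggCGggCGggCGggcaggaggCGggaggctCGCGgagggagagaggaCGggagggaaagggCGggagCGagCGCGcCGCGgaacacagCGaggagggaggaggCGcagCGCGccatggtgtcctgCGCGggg
Hoxd4: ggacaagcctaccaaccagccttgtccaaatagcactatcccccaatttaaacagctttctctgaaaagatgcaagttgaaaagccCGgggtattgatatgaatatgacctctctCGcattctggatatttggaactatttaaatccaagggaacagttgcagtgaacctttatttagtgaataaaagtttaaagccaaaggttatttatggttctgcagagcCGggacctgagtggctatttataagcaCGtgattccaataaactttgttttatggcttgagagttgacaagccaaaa
Mtx2: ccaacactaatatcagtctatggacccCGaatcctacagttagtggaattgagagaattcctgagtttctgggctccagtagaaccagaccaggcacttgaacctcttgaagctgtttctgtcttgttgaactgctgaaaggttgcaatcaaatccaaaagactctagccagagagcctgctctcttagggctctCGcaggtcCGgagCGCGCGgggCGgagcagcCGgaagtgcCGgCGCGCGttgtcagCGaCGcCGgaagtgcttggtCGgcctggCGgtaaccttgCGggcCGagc

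The promoters of the members ranged widely in CpG content although all were covered. The Hoxd13 promoter held 37 CpG dinucleotides with a GC content of 74.3%, a number that 5.62% of all 32619 promoters of this length reached. The Hoxd4 promoter held 4, at a GC content of 39.7%, and 69.0% of all promoters held as many. Hoxd1 held 29, Hoxd10 held 22, Hoxd3 and Hoxd9 held 20 each, Evx2 held 16, Hoxd12 held 13 and Hoxd8 held 6. Hoxd11 has 2 annotated starts, with 4 CpG dinucleotides at the upstream one and 25 at the other. The median over the 11 promoters of the members was 20, against 7 over all promoters. The set of all promoters includes those of noncoding genes, whereas every member is protein-coding. Promoters whose start lay in a peak also had a median of 7 in each list, as did those outside peaks. The letters TAATTA, a core sequence that homeodomains are known to bind and that reads the same on both strands, occurred in both Hoxd11 promoters and in no other promoter of a member, and in 5.25% of all promoters. The flanking genes, whose starts lay outside the peaks, had 25 CpG dinucleotides in the Lnpk promoter and 19 in the Mtx2 promoter.

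Evx2, at the end of the cluster, was the only member whose cover differed between the lists. Its body (chr2:74652989-74661520) was covered over 70.1% in WT and 100% in Utx-cKO. The gap lay 1.61 to 4.16 kb downstream of its annotated start at 74659557, so the start itself was inside the second WT peak. Cover of the whole body in Utx-cKO but not in WT was found for 1.10% of protein-coding genes, and the reverse for 0.781%. Peaks of 1 list that spanned several of the other were common among wide domains. Of autosomal Utx-cKO peaks at least as wide as the second WT peak over HoxD, 5 of 8 (62.5%) overlapped 2 or more WT peaks, and of WT peaks of that width 3 of 8 (37.5%) overlapped 2 or more Utx-cKO peaks. That width was chosen after the data were seen, in place of 100 kb, at which the counts were 17 of 22 Utx-cKO and 11 of 22 WT peaks. The Utx-cKO peak over HoxD is itself counted in 5 of 8 and in 17 of 22. The Utx-cKO peak over Evx1, described below, is also counted in 17 of 22. The second WT peak over HoxD is among the 8 and the 22 WT peaks. Over peaks of any width and chromosome these shares were 5.17% and 7.08%. The gap at Evx2 was shorter than most of the 517 gaps between WT peaks that a Utx-cKO peak spanned (median 5600 bp, interquartile range 3250 to 8950 bp, shortest 1750 bp).

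Evx1, the paralogue of Evx2 beside the HoxA cluster, also had a WT gap inside its body, of like length. Its gap (chr6:52314051-52316950) was 2900 bp long, lay wholly inside the gene (chr6:52313498-52318389) and reached from 0.553 to 3.45 kb downstream of the annotated start. The gene body was covered over 40.7% in WT. In Utx-cKO a single peak of 108 kb (chr6:52226051-52333750) covered it entirely. Both Evx genes were thus covered at their annotated start and broken downstream of it in WT, and covered throughout in Utx-cKO. The Evx2 body reaches upstream of that start, to 74661520, whereas the Evx1 start is the edge of its body. Measured from these edges, the Evx2 gap lay farther in than the Evx1 gap. The likeness between the genes was noticed after the values were seen, in 1 list per genotype. It was not tested. Each gap is shorter than 5 kb, so merging peaks within 5 kb closes both.

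The posterior members, Hoxd13 to Hoxd8, lay deep inside the domain. Hoxd13 (chr2:74668225-74671603), which is required for digits and genitalia, started 10.3 kb after the WT gap and 68.3 kb after the start of the Utx-cKO peak. Hoxd12 (chr2:74675013-74677705), its neighbour in the distal limb, started 17.1 kb after the gap. Hoxd11 (chr2:74679558-74687016) and Hoxd10 (chr2:74684273-74695106), which act in forearm and lumbar patterning, overlap in the annotation and cannot be told apart by a domain. Hoxd9 (chr2:74697763-74700208) and Hoxd8 (chr2:74704615-74707933), which act in the trunk and proximal limb, followed. Each of these 6 genes was covered over 100% of its body in both lists.

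The anterior members were covered as completely. Hoxd3 (chr2:74711993-74748271), known for the upper cervical vertebrae, overlaps Hoxd4 (chr2:74721978-74729160), a retinoid-responsive gene of the hindbrain and neck, in the annotation. Hoxd1 (chr2:74762980-74765142), known in the mouse for the wiring of pain-sensing neurons, lay nearest to the far end of the domain. From the start of Hoxd1 to the end of the peak there were 21.8 kb in WT and 15.4 kb in Utx-cKO. The difference between the ends thus lay outside every member. The 6 noncoding genes annotated within the cluster were covered entirely in both lists. They are Gm31790 between Evx2 and Hoxd13, Gm38462, Hoxd3os1, Mir10b inside Hoxd4, and Haglr and Gm14424 between Hoxd3 and Hoxd1. Mir10b gives miR-10b-5p, shown here because it is the only microRNA annotated within the cluster, with its seed (bases 2 to 8) in capitals.
mmu-miR-10b-5p: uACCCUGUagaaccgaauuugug

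By signal, the domain stood near the top of both lists, as did the widest peaks of the other Hox clusters. Signal is the authors' value per peak, of unknown scale, and was ranked only within a list. By total signal, the coverage summed over a peak, the second WT peak was number 2 of 7826 (2881950) and the Utx-cKO peak number 2 of 8914 (3540000). The first WT peak, with 586686, was number 183. By mean signal per bp, which is the total divided by the width, the second WT peak stood at 22.7, or 5.43 times the median of its list, and the first at 10.6, or 2.53 times. The Utx-cKO peak, which spans both, stood at 19.8, or 4.89 times the median of its list. By maximum signal the ranks were lower, with number 146 in WT (73.7) and number 194 in Utx-cKO (70.4). The domain thus ranked higher by its summed than by its highest signal. It held 0.347% of the summed total signal of the WT list on 0.0994% of its covered length, and 0.334% on 0.0911% in Utx-cKO. By total signal the widest HoxC peak was number 1 in both lists. The widest HoxA and HoxB peaks tied at number 3 in WT, with totals given as 2440000 for each. The largest totals are partly given in fewer digits, so their order there is not known. In Utx-cKO the widest HoxA peak was number 3 and the widest HoxB peak number 4. The mean signal per bp of these peaks in WT and Utx-cKO was 26.5 and 27.6 for HoxA, 16.3 and 16.5 for HoxB, and 16.9 and 17.7 for HoxC.

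In each list the strongest point of the peak that reaches all members lay between Evx2 and Hoxd13, not at the anterior members. In the second WT peak the maximum was at chr2:74662251-74662300, 2.72 kb upstream of the Evx2 start. In the first WT peak it was at chr2:74649301-74649350, 3.66 kb outside the border of Evx2, with a maximum signal of 67.0. That peak overlaps no member but Evx2, so its maximum could not lie at an anterior member. The Utx-cKO maximum was at chr2:74666651-74666700, between Evx2 and Hoxd13 and 1.55 kb upstream of the Hoxd13 start. This maximum and that of the second WT peak both lay inside the noncoding gene Gm31790 (chr2:74661551-74666891). The files give 1 maximum per peak, so the levels at the other members are not known.

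**Figure D2:**
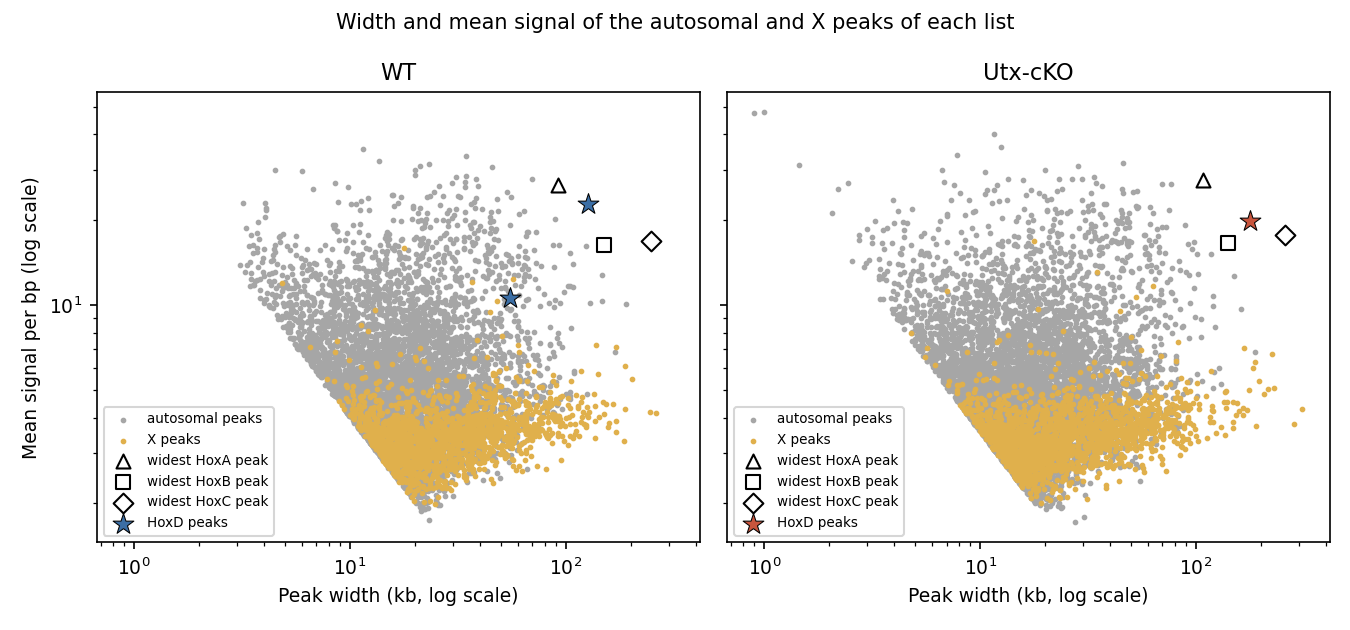
Each point is a peak, with its width in kb on the horizontal axis and its mean signal per bp on the vertical axis, both logarithmic; stars are the HoxD peaks and open symbols the widest peaks of the other Hox clusters. The second WT peak (127 kb, 22.7) and the Utx-cKO peak (178 kb, 19.8) lie with the other Hox domains above X peaks of like width, and the first WT peak (55.5 kb, 10.6) lies among the other autosomal peaks.

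Few peaks were as wide as the domain. The second WT peak was number 32 of its list by width and number 8 among autosomal peaks, and the Utx-cKO peak was number 13 and number 3. Outside the Hox clusters, the genes whose widest peak came nearest in width were Armcx2 and Armcx3, which shared a peak of 126 kb, and Shroom2 (126 kb) in WT. In Utx-cKO they were Chrdl1 (177 kb) and Gm15266 and Iqsec2, which shared a peak of 185 kb. These genes lie on X. Their mean signal per bp was 4.36 and 4.10 in WT and 5.03 and 6.01 in Utx-cKO.

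The domain ended short of the genes on either side. It reached 53.0 kb beyond the border of Evx2 in both lists, towards Lnpk, which encodes a protein of endoplasmic reticulum junctions. On the other side it reached 19.7 kb beyond Hoxd1 in WT and 13.2 kb in Utx-cKO, towards Mtx2, a mitochondrial import protein. The bodies of Lnpk and Mtx2 were covered over 0% in both lists. The start of the domain, 74599951, was the same to the base on a 50 bp grid. Identical starts were found for 8.66% of WT peaks and 7.61% of Utx-cKO peaks.

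A separate peak lay between the domain and Mtx2 and stopped at the start of that gene. It ran over chr2:74800551-74825750 in WT (25.2 kb) and chr2:74793351-74825750 in Utx-cKO (32.4 kb), at percentiles 87.2 and 90.0 of its list by total signal. Its end was identical in both lists, as 8.54% of WT and 7.49% of Utx-cKO peak ends were, and lay 62 bp before the Mtx2 start at 74825812, so that the first 189 bases of the Mtx2 promoter printed above were inside it. Of all peak borders, 1.14% in WT and 1.06% in Utx-cKO lay within 100 bp of the start of a protein-coding gene. On the other side a small peak lay next to Lnpk (chr2:74581751-74591500 in WT and chr2:74580251-74591350 in Utx-cKO), at percentiles 5.02 and 25.8. The window of 2 kb used to choose peaks would have called Mtx2 in both lists, and Lnpk in Utx-cKO alone, where the peak began 793 bp from the gene against 2293 bp in WT.

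H3K27me3 peaks were also dense in the gene-poor regions around the cluster, which in limbs are known to hold its long-range enhancers. In the 1 Mb before Evx2, peaks covered 34.0% in WT and 34.3% in Utx-cKO, and in the 1 Mb after Hoxd1 38.4% and 36.5%, the ends of the domain itself included. Over the autosomes the peaks covered 5.17% and 5.60% of the span of annotated genes, and over chromosome 2 alone 6.62% and 7.21%. Apart from the domain there were 8 WT and 10 Utx-cKO peaks before the cluster and 12 and 16 after it. A Utx-cKO counterpart was found for 20 of the 20 WT flank peaks, against 88.0% of the whole WT list. A WT counterpart was found for 24 of the 26 Utx-cKO flank peaks, against 78.4% of the whole Utx-cKO list. The Utx-cKO peaks without a WT counterpart were 1 on each side, chr2:74481901-74500100 and chr2:75282051-75295900, at percentiles 25.9 and 4.79 of total signal. After the cluster the widest WT peak (chr2:74904251-74983450, 79.2 kb) faced 2 Utx-cKO peaks, chr2:74904451-74946500 and chr2:74953351-74977000. This break was in the opposite sense from that at Evx2. In the flanks 5 of 20 WT peaks overlapped 2 or more Utx-cKO peaks, against 7.08% of the whole WT list. The reverse held for 1 of 26 Utx-cKO peaks, against 5.17% of the whole Utx-cKO list. The protein-coding genes Atf2, a transcription factor, Atp5g3, a subunit of ATP synthase, and Hnrnpa3, an RNA-binding protein, had no peak in their bodies in either list. Like Lnpk, Atp5g3 would have been called by the 2 kb window in Utx-cKO alone. The next peak began 887 bp from Atp5g3 there, against 14487 bp in WT. Gm50595, annotated as protein-coding and also after the cluster, had 4 peaks in its body in each list, over 40.1% of it in WT and 46.2% in Utx-cKO.

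**Figure D3:**
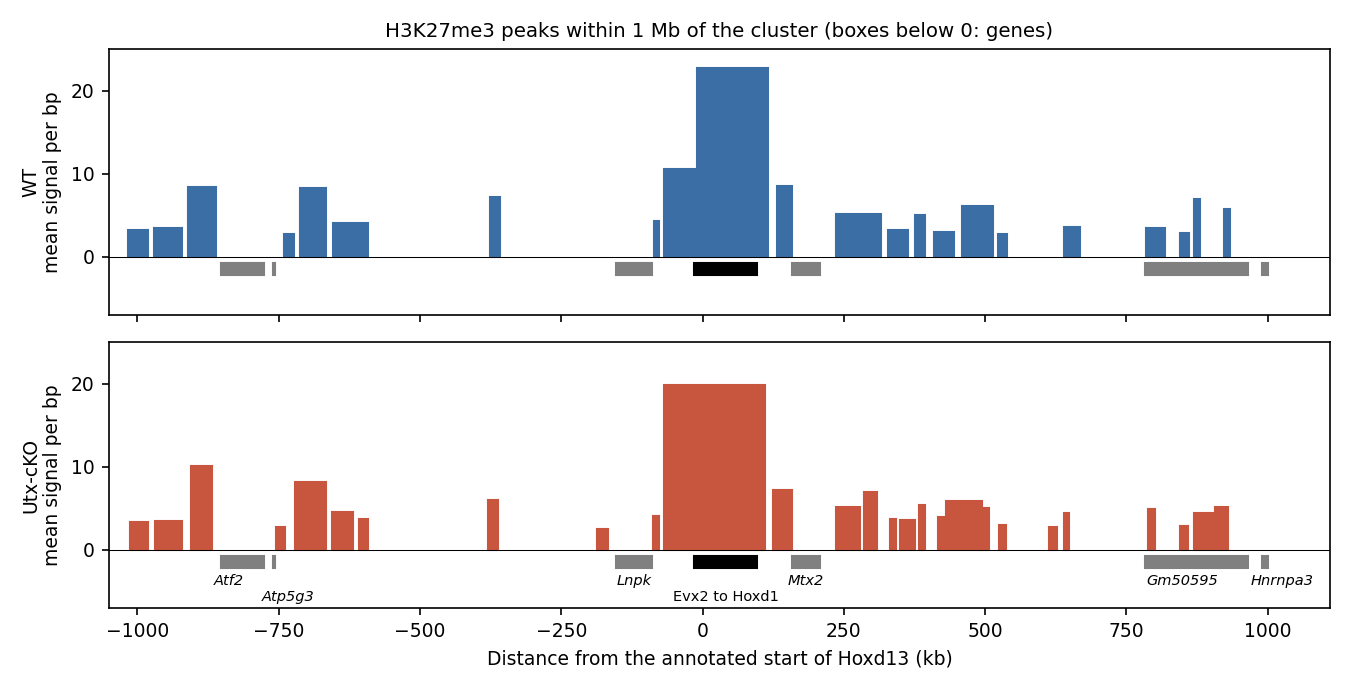
Peaks within 1 Mb of the cluster are drawn by their distance from the annotated start of Hoxd13 (horizontal axis, kb) and their mean signal per bp (vertical axis), for WT above and Utx-cKO below; the black box is the span from Evx2 to Hoxd1 and grey boxes are the nearest protein-coding genes. The HoxD domain stands at 22.7 and 10.6 in WT and 19.8 in Utx-cKO, and the peaks around it are lower in both lists.

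The Hoxd genes were covered over their whole bodies in every case, which was not so in the other Hox clusters. Of the 9 Hoxd genes 9 were covered entirely in each list. Of 11 Hoxa genes 4 were in WT and 3 in Utx-cKO, of 10 Hoxb genes 2 in each list, and of 9 Hoxc genes 6 in WT and 7 in Utx-cKO. The difference lay mostly in the anterior genes. In paralogue groups 1 to 5, all 3 Hoxd genes (Hoxd1, Hoxd3 and Hoxd4) were covered entirely in both lists, while of the 12 genes of the other clusters 0 were in WT and 1, Hoxc4, in Utx-cKO. In groups 6 to 13, 6 of 6 Hoxd genes were covered entirely, against 12 of 18 genes of the other clusters in WT and 11 of 18 in Utx-cKO. Neighbouring genes share a domain, so the clusters, not the genes, are the independent units, and no test was made. The widest peaks of the HoxA, HoxB and HoxC clusters were 92.2, 150 and 249 kb in WT and 108, 140 and 260 kb in Utx-cKO.

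**Figure D4:**
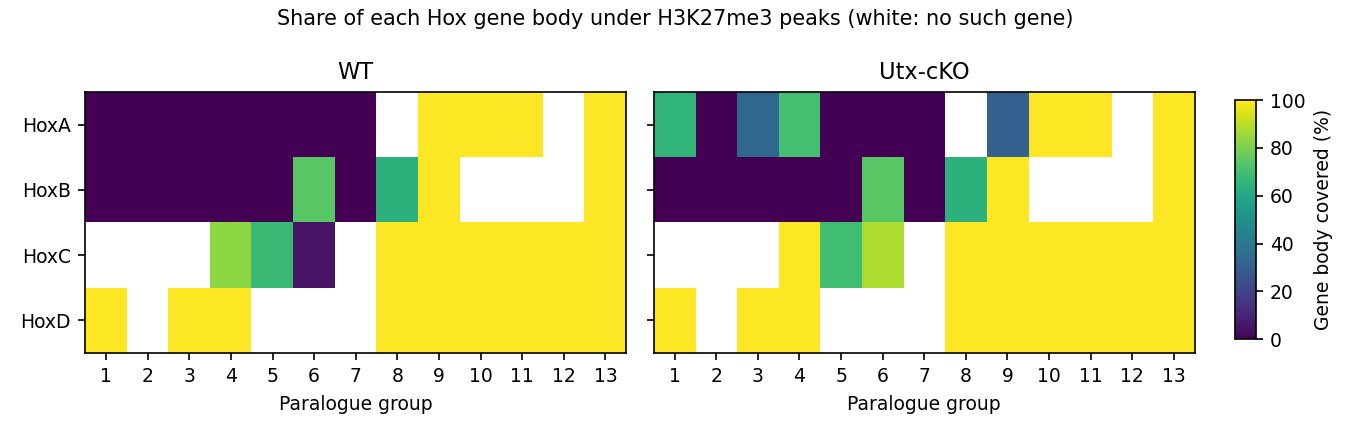
Colour gives the percent of each Hox gene body under peaks, with clusters in rows and paralogue groups 1 to 13 in columns, for WT and Utx-cKO. The HoxD row is at 100% throughout in both lists, while the 5 genes of groups 1 to 5 in each of the HoxA and HoxB rows are at 0% in WT.

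Of 14 further genes that act with or upstream of Hox genes, or are related to them, the same 7 had a peak in each list. Among all protein-coding genes 16.4% had a peak in both lists. Cdx4 and Cdx2, caudal-type factors that switch on Hox genes in the embryo, were covered entirely in both, under peaks of 138100 and 60750 bp in WT and 167950 and 63150 bp in Utx-cKO. Cdx4 is X-linked. Pknox2 and Meis2, of the family of Hox cofactors with an extended homeodomain, were covered over 5.57% and 12.7% of their bodies in WT and 2.77% and 9.61% in Utx-cKO.

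As a check of the labelled tissue, 0 of 7 keratinocyte genes, among them Krt5, Krt14 and Trp63, had a peak in either list. Peaks were found at 6 of 6 fibroblast genes, 3 of 3 immune genes, 2 of 3 melanocyte genes and 0 of 2 endothelial genes, the same numbers in both lists. These counts take peaks in the body or within 2 kb of it, which 18.0% of all protein-coding genes had in WT and 19.5% in Utx-cKO. The body itself was covered over 0% in both lists at Cd207, an immune gene. At Col1a1, a fibroblast gene, it was covered over 7.59% in WT and 0% in Utx-cKO. A peak is a chromatin state and not an RNA level, and whether the members were transcribed was not measured here. A domain in merged suspensions does not tell in which cells it lies, and the part of cell types other than keratinocytes, or of cells that kept Utx, in these domains was not tested.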

How the data were processed

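H3K27me3 and IgG CUT&RUN was done on 12 libraries, 3 of each kind per genotype, and 2 H3K27me3 peak lists were analysed. Per the file headers, peaks were called with SEACR (spelled SECAR there) on data merged from all samples of a group. The lists carry no column names, so their meaning was taken from the layout that SEACR writes. Each peak has a deposited score for total signal (coverage summed over the peak) and for maximum signal. The sources used here do not state the scale of these scores, any normalization, or the mode, control and threshold of SEACR, and depth is unknown. The largest totals are partly given in fewer digits, among them that of the Utx-cKO peak over HoxD. The submitters' processing notes name the builds mm10, GRCm38 and sacCer3 and the tools deepTools, bedtools 2.27.1, SAMtools 1.9 and Bowtie2 2.3.4.3.

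From these lists, overlaps of at least 1 bp, covered lengths and ranks within a list were computed with Python 3.11.15, pandas 2.3.3 and NumPy 2.4.6, with routines checked on simulated intervals. Genes and starts came from RefSeq GRCm38.p6 (49554 genes on chromosomes 1 to 19 and X). The members, lists and alternatives were chosen with earlier results of these data known. Named genes were the members, the genes within the cluster and its nearest neighbours, Evx1, and for the gene lists up to 4 marked genes, with Cdx1 in addition. The genes named for like width had the widest peak nearest in width to the widest HoxD peak, up to 3 per list. Each genotype has 1 pooled list, so no p-value was computed. The alternatives were other windows, overlap rules, peak thresholds, merging and ranking.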

Additional observations from a re-analysis of the deposited data

How the results depend on the processing

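The number of members with a peak was 10 in both lists under all 14 alternatives tried (no window or 5 kb, 50% of the body covered, a peak within 2 kb of the start, the top 50% of each list, a common floor of total signal, peaks within 5 kb merged). These alternatives could not have given another number. Every start lay in a peak, at least 70.1% of each body was covered, and the peaks stood at percentile 97.7 or higher by total signal. Merging peaks within 5 kb closed the gap at Evx2 in WT, so that 100% of the span was covered in place of 97.7% and the WT domain measured 184850 bp in place of 182300 bp. With the span extended by 2 kb the WT share was 97.8%. The percentile of the strongest HoxD peak by total signal was 99.97 in WT and 99.98 in Utx-cKO. By maximum signal it was 98.1 and 97.8, by mean signal per bp 99.4 and 98.9, by width 99.6 and 99.9, and among autosomal peaks 99.97 in both. The other alternatives, 30 of 40 with those on the number of members, left the values as they were. The gap at Evx2 therefore rests on peaks being kept apart at 2550 bp, and its cause was not tested. The gap at Evx1, of 2900 bp, is also shorter than 5 kb, so the likeness between the Evx genes rests on the same choice. No paired analysis was possible because each list pools its animals. No replicate could be left out for the same reason, and without a known depth no difference in signal between the lists can be read.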
